A study of Mus musculus with 56 samples.

Results

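The transcripts described here are those of 4 genes that make or import taurine, Cdo1, Csad, Ado and Slc6a6, out of 22864 genes listed for the mouse heart. They were taken by symbol, each symbol had 1 row, and all 4 passed the filter on low values, a mean of at least 1 TPM, the number of transcripts of a gene in a pool of 1000000 transcripts. The set was chosen by the TPM values of Cdo1, which were higher with daytime feeding in these same libraries, so the difference in Cdo1 between feeding regimens is given as a description and carries no test. Hearts came from female C57BL/6J mice that were 9 weeks old and housed on a 12 h light and 12 h dark schedule. After a week of free access to chow, one set of mice was fed in the daytime (daytime-restricted feeding, DRF) and the reference set at night (nighttime-restricted feeding, NRF) for 7 days. Each regimen was sampled at 7 Zeitgeber times (ZT), every 4 h from lights on (ZT0) to ZT24, with 4 replicates in each of the 14 groups and 56 poly(A) RNA-seq libraries in all. Both regimens share the strain, sex, age and light cycle. A freely fed group was not analysed here, so each difference is between the 2 feeding schedules.

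Taurine is a sulfur-containing amino acid that reaches very high concentrations in heart muscle, where it acts as an osmolyte and influences calcium handling. Cells make it from cysteine. Cdo1 (cysteine dioxygenase) oxidises cysteine to cysteine sulfinate, Csad (cysteine sulfinic acid decarboxylase) turns that product into hypotaurine, and Ado (cysteamine dioxygenase) supplies hypotaurine from cysteamine by a separate route. Slc6a6 encodes the sodium- and chloride-dependent taurine transporter TauT, and the heart is known to depend largely on this uptake, since liver and fat are the better known sites of taurine synthesis.

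RefSeq windows from 250 bases before to 50 bases after the start site (build GRCm38.p6) were matched for Csad, with 2 start sites, and for Ado. A window of each is shown because the pair differs sharply in base composition, with each CG dinucleotide in capitals and the sequence given 5′ to 3′ on the coding strand.
Csad, chr15:102205003-102205302, minus strand: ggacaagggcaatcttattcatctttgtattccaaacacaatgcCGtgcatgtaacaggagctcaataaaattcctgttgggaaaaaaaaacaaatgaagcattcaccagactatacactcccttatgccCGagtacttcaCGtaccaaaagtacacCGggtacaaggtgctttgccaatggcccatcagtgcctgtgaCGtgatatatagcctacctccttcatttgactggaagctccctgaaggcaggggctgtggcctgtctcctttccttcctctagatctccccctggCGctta
Ado, chr10:67548906-67549205, minus strand: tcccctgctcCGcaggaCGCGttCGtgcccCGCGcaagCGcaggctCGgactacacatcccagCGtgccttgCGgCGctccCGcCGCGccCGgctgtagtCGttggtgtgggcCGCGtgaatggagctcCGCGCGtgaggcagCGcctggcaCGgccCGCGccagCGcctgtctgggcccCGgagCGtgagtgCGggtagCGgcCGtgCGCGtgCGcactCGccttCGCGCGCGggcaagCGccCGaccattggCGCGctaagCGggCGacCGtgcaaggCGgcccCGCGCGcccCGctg
The Ado window held 51 CG dinucleotides and the Csad window 6, against a median of 7 over 32851 windows of 300 bases (interquartile range 3 to 20). The letters CACGTG, the E-box read by the clock activators, and AGGTCA, the half-site of many nuclear receptors, were searched on both strands, and neither occurs in the Csad or Ado windows. They occur in 7.15% and 16.3% of all windows.

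By position in GRCm38, Cdo1 (ENSMUSG00000033022) lies on chromosome 18 from 46713193 to 46728395 on the minus strand, and Csad (ENSMUSG00000023044) on chromosome 15 from 102176999 to 102204724, also on the minus strand. The Csad window shown above lies outside this annotated span. The second Csad window, from 102188994 to 102189293 with 5 CG dinucleotides, lies within it. Ado (ENSMUSG00000057134) lies on chromosome 10 from 67544511 to 67548955 on the minus strand, and Slc6a6 (ENSMUSG00000030096) on chromosome 6 from 91684053 to 91759066 on the plus strand. In the annotation, Csad shares 278 of its 3831 exon bases (7.26%) with Zfp740 on the opposite strand, and Slc6a6 shares 117 of 8457 (1.38%) with the opposite-strand gene Gm44981. No use of strand in the counting is given in the sources used here, so reads from these stretches cannot be told apart. Cdo1 and Ado share no exon base with another annotated gene.

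Libraries held 29250234 to 52864920 reads assigned to genes, a depth that gave Cdo1 83 to 1660 reads, Csad 347 to 706, Ado 725 to 1549 and Slc6a6 4867 to 13411 reads per library. Cardiomyocyte markers were high in every library, and their summed level was 23121 to 31526 TPM under DRF and 27186 to 37012 TPM under NRF. Of its 6 genes Actc1 was lower under DRF (-0.18, limma adjusted p = 0.00392; 0.0704 with median-of-ratios scaling) and Tnnt2 higher (0.10, adjusted p = 0.0202). Of 5 blood and immune markers, the macrophage genes Cd68 (-0.28, adjusted p = 0.00158) and C1qa (-0.23, adjusted p = 0.00550) were lower, with both scalings. These marker counts stand against 24.3% of all genes lower and 1.67% higher. With median-of-ratios scaling 1041 of the 13892 genes tested were lower and 765 higher. A pair of libraries went against their labels. Over the 1091 genes whose rhythm differed most clearly between regimens (adjusted p under 0.001), the library labelled DRF ZT4 replicate 1 correlated with its own group at -0.21 and most closely with NRF ZT8 (r = 0.85), and the library labelled NRF ZT8 replicate 1 correlated with its own group at -0.14 and most closely with DRF ZT4 (r = 0.74). The other 54 libraries correlated with their own groups at 0.50 to 0.95. Both were kept under their labels, and the main results that rest on them are also given without them. The library labelled NRF ZT4 replicate 3 was also nearer, slightly, to DRF ZT24 (r = 0.66) than to its own group (r = 0.63). Since the labels do not say how animals were assigned to replicate numbers, p-values measure the spread between these samples.

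Slc6a6 was the most abundant of the 4 transcripts and Csad the least. On the TPM scale, which is per length, the mean over 56 libraries was 52.1 ± 8.23 (SD) for Slc6a6, 14.4 ± 1.35 for Ado, 13.6 ± 10.9 for Cdo1 and 7.45 ± 1.06 for Csad. Ado and Cdo1, neighbours in this order, did not differ beyond their spread, whereas the lowest Slc6a6 library (36.0 TPM) lay above the highest Ado library (17.6 TPM). Cdo1 stood out for its variation between animals of the same group. Its within-group SD was 0.77 on the log2(TPM + 1) scale, the 98.9th percentile of the 13892 genes tested, against 0.17 for Slc6a6, 0.16 for Csad and 0.10 for Ado. The plot of the members by ZT shows this contrast.

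**Figure D1:**
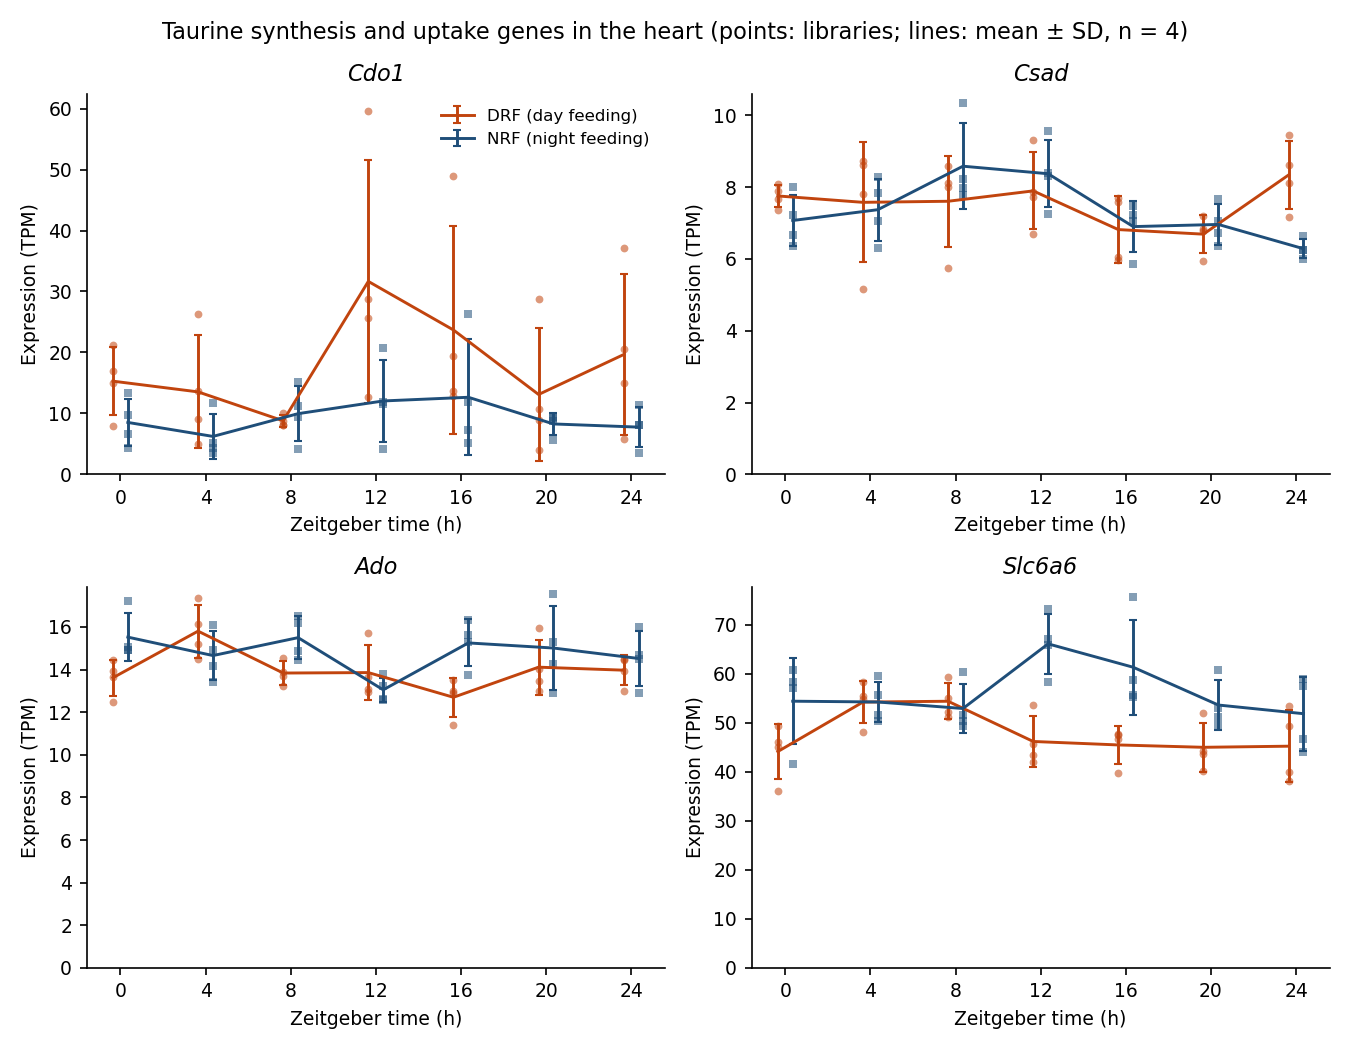
Expression (TPM) of Cdo1, Csad, Ado and Slc6a6 against Zeitgeber time (h), with DRF in orange circles and NRF in blue squares; points are libraries, and lines with bars are the mean ± SD of 4 libraries. Cdo1 spreads from 12.7 to 59.6 TPM in the DRF group at ZT12, whereas the Slc6a6 groups separate at ZT12 and ZT16.

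Cdo1, the enzyme that commits cysteine to taurine synthesis, was at 17.96 ± 13.2 TPM in DRF hearts and 9.34 ± 5.20 TPM in NRF hearts (SD, n = 28 libraries each, which span all ZTs). The lowest, median and highest libraries were 3.93, 13.6 and 59.6 TPM under DRF and 3.51, 8.99 and 26.2 TPM under NRF. The fitted difference in mean level was 0.75 log2 units (SE 0.20), that is 1.68-fold on the log2(TPM + 1) scale, and 0.81 (SE 0.21) without the pair of libraries that went against their labels. This is the contrast by which the set was chosen.

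The Cdo1 difference was not even over the day. At ZT0 the DRF libraries held 8.01, 14.9, 16.9 and 21.3 TPM and the NRF libraries 4.35, 6.57, 9.81 and 13.3 TPM. At ZT4 the values were 5.02, 9.05, 13.7 and 26.3 TPM under DRF, of which 9.05 is the library that went against its label, and 3.58, 4.37, 5.22 and 11.7 TPM under NRF. At both times the DRF mean was higher and the ranges overlapped. At ZT8 the regimens were side by side, with 8.11, 8.16, 8.73 and 10.1 TPM under DRF and 4.15, 9.36, 11.2 and 15.2 TPM under NRF, and the mean difference had the opposite sign (-0.05 log2 units). The highest NRF value there is the other library that went against its label, and without the pair the differences were 1.02 at ZT4 and 0.17 at ZT8. At ZT12, the end of the feeding period under DRF, the DRF libraries reached 12.7, 25.6, 28.8 and 59.6 TPM against 4.14, 11.5, 11.8 and 20.7 TPM under NRF. This was the widest gap (1.30 log2 units), and still 1 DRF library lay below the highest NRF library. At ZT16 the values were 12.8, 13.6, 19.4 and 48.9 TPM under DRF and 5.16, 7.27, 11.9 and 26.2 TPM under NRF. At ZT20 they were 3.93, 8.89, 10.7 and 28.8 TPM under DRF and 5.64, 8.82, 9.17 and 9.44 TPM under NRF. At ZT24 they were 5.75, 15.1, 20.6 and 37.2 TPM under DRF and 3.51, 8.03, 8.10 and 11.3 TPM under NRF. The regimens overlapped at all 7 ZTs.

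No daily rhythm of Cdo1 passed the test in either regimen. The fitted 24 h cosine had an amplitude of 0.33 (SE 0.16, log2 units) under NRF and 0.39 (SE 0.23) under DRF, with limma adjusted p = 0.236 and 0.361. The fitted peaks, ZT14.3 and ZT15.2, differed by 0.86 h (SE 2.97), an interval of -4.96 to 6.68 h, and since neither rhythm passed these peak times are descriptions. The tests of a difference in rhythm gave limma adjusted p = 0.965 on clock time and 0.106 on food time, where hours are counted from the start of feeding (ZT0 under DRF, ZT12 under NRF). Set side by side at matched hours after the start of feeding, the group means of Cdo1 were 15.3 ± 5.53 and 12.0 ± 6.77 TPM under DRF and NRF at 0 h, 13.5 ± 9.25 and 12.6 ± 9.48 TPM at 4 h, and 8.78 ± 0.947 and 8.27 ± 1.77 TPM at 8 h (SD, n = 4). They were 31.7 ± 19.9 and 8.52 ± 3.92 TPM at 12 h, 23.7 ± 17.1 and 6.22 ± 3.73 TPM at 16 h, and 13.1 ± 10.9 and 9.96 ± 4.56 TPM at 20 h. The widest gaps, at 12 and 16 h, came with the largest SDs. The 24 h separating the ZT0 and ZT24 samples left no detectable difference in any of the 4 genes (limma adjusted p from 0.695 to 0.962, with 0.425% of genes called under DRF and 0.0576% under NRF).

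The spread of Cdo1 between hearts moved with adipocyte transcripts. The genes most like Cdo1 over the 56 libraries, by Pearson's r on the log2(TPM + 1) scale, were Scd1 (r = 0.95), the stearoyl-CoA desaturase, Plin1 (r = 0.95), the perilipin that coats adipocyte lipid droplets, and Fasn (r = 0.92), the fatty acid synthase. Scd1 itself was at 153 ± 151 TPM in DRF hearts and 57.7 ± 34.1 TPM in NRF hearts (SD, n = 28). For deviations from the 14 group means, which take out regimen and time of day, the highest values were for Plin1 (0.97), Scd1 (0.96), Car3 (0.96), Cidec (0.95) and Adipoq (0.95). These libraries share a chemistry and a range of depths, and the values describe these 56 libraries only.

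All 7 adipocyte markers were above 0 in most libraries: Adipoq, Plin1, Cidec, Cfd and Retn in all 56, Lep in all but 2 and Adrb3 in all but 1. Their summed level ran from 5.65 to 217 TPM under DRF (median 53.0) and from 14.2 to 197 TPM under NRF (median 59.6), a range far wider than the gap between regimens. Cfd, at a mean of 44.7 TPM, made up most of this sum. Its mean was lower with daytime feeding, 39.6 against 49.8 TPM, whereas each other adipocyte marker had a higher mean. None of the 5 tested markers passed the test of mean level, against 25.9% of all genes in either direction. Their fitted differences ran from -0.36 (Cfd) to 0.38 (Plin1), with 4 above 0 and Cfd alone below. An adipocyte level without Cfd was not tested as a covariate. Cdo1 correlated with the summed adipocyte level at r = 0.92 within DRF and 0.92 within NRF (n = 28 each), and at 0.80 over both (Spearman's rho 0.81). With the adipocyte level in the fit as a covariate, the Cdo1 difference between regimens was 0.56 log2 units (SE 0.05). In separate fits with the same covariate, a 24 h rhythm of Cdo1 passed the test under DRF (amplitude 0.24, SE 0.05, peak ZT19.6, limma adjusted p = 0.00356) and under NRF (amplitude 0.17, peak ZT18.2, adjusted p = 0.0461). The rhythms differed on food time (adjusted p = 0.00019) and not detectably on clock time (adjusted p = 0.745). In bulk tissue, fewer cells of a type and less RNA per cell cannot be told apart.

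**Figure D2:**
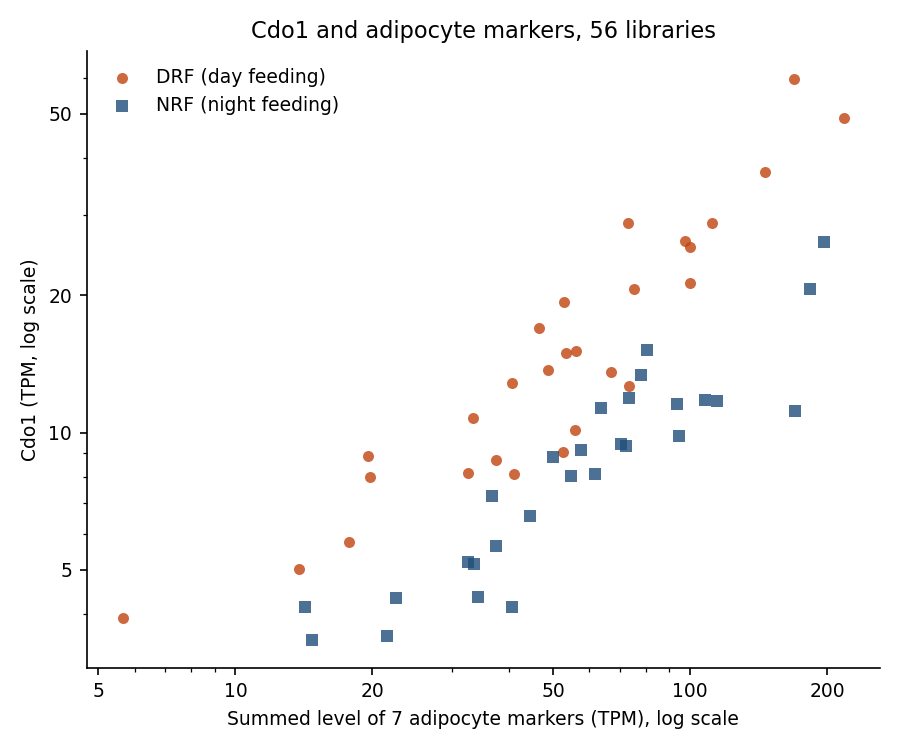
Cdo1 (TPM, log scale) against the summed level of 7 adipocyte markers (TPM, log scale) in 56 libraries, DRF in orange circles and NRF in blue squares. Cdo1 rises with the adipocyte level in both regimens (r = 0.92 in each). The adipocyte ranges of the regimens overlap. At like adipocyte levels Cdo1 lies higher under DRF (0.56 log2 units, SE 0.05, with that level as a covariate).

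Atrial markers also differed between libraries. The summed level of Myl7, Sln, Myl4 and Bmp10 ran from 4.73 to 2486 TPM under DRF (median 895) and from 6.85 to 2302 TPM under NRF (median 275), and of the 4 Bmp10 alone passed the test of mean level (1.58 log2 units, limma adjusted p = 0.0458, against 1.67% of all genes called higher), a call lost with median-of-ratios scaling (adjusted p = 0.0660). The other 3 differed by 1.07 to 1.26 log2 units and did not pass. Bmp10 was at 0 in 12 libraries. Cdo1 correlated with this sum at r = 0.50 (n = 56), and with the atrial level as a covariate its difference between regimens was 0.46 log2 units (SE 0.18). The atrial covariate was chosen after the data were seen. Of 4 liver markers, the albumin gene Alb was the only one tested and was higher under DRF (0.99 log2 units, adjusted p = 0.0295; 7.12 ± 12.8 against 1.51 ± 2.31 TPM, n = 28). The liver sum ran from 0.409 to 69.5 TPM under DRF (median 3.41) and from 0.258 to 15.4 TPM under NRF (median 1.05). Cdo1 correlated with it at r = 0.17 and, for deviations from group means, at 0.018, and with the sum of the brown adipocyte markers Ucp1, Cidea and Elovl3 at 0.71 and 0.70. Cidea, at a mean of 47.9 TPM, made up most of the brown adipocyte sum, while Ucp1 was at 0 in 20 libraries and Elovl3 in 13. No tested brown adipocyte marker passed (0 of 2, against 25.9% of all genes), with a difference of 0.75 log2 units for Ucp1 (adjusted p = 0.157), and the part of either list in the Cdo1 difference was not tested. The share of reads from mitochondrial genes was 18.2 to 24.96% under DRF and 16.6 to 22.8% under NRF, and with that share as a covariate the Cdo1 difference was 0.90 log2 units (SE 0.22).

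Csad, which acts on the product of Cdo1, was at 7.53 ± 1.08 TPM in DRF hearts and 7.36 ± 1.05 TPM in NRF hearts (SD, n = 28), with a lowest, median and highest library of 5.15, 7.70 and 9.44 TPM under DRF and 5.87, 7.23 and 10.3 TPM under NRF. The regimens covered nearly the same range. The difference in mean level was 0.00 log2 units (SE 0.04, interval -0.08 to 0.09, limma adjusted p = 0.956). Csad did correlate with Cdo1, at r = 0.39 over 56 libraries and 0.47 for deviations from group means, and with the summed adipocyte level at 0.50. Its correlation with the sum of 5 fibroblast markers was also 0.50. Of those 5, 3 were lower under DRF, against 24.3% of all genes. With median-of-ratios scaling 2 of the 5 were lower, against 1041 of 13892 genes. The part of these markers in the Csad values was not tested.

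Csad was the one gene of the set with a daily rhythm that held in every alternative tried. Under NRF it rose in the second part of the light phase. Its NRF libraries were at 6.37, 6.68, 7.23 and 8.004 TPM at ZT0, at 7.79, 7.97, 8.23 and 10.3 TPM at ZT8, and at 7.25, 8.30, 8.39 and 9.55 TPM at ZT12. The ZT8 value of 7.97 TPM is the library that went against its label. By ZT16 they had come down to 5.87, 7.05, 7.22 and 7.47 TPM, and by ZT24 to 5.99, 6.25, 6.25 and 6.65 TPM, below every ZT8 and ZT12 library. The fitted amplitude was 0.16 (SE 0.04, log2 units) with a peak at ZT9.48 (SE 0.88), and limma's adjusted p was 0.00284, and 0.00299 without the pair of libraries that went against their labels. A test over the 7 ZT means with no assumed shape gave adjusted p = 0.0190. Within NRF, Csad correlated with the fibroblast sum at r = 0.70 (n = 28), and 3 of the 5 fibroblast markers were rhythmic there, Col1a1 with a peak at ZT6.22, Col1a2 at ZT8.98 and Dcn at ZT15.0. Their part in the Csad rhythm was not tested. As background, a rhythm was called in 37.1% of all genes with NRF, in 32.3% with DRF and in 17.5% with both.

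Under DRF the Csad rhythm did not pass (amplitude 0.08, SE 0.05, limma adjusted p = 0.413). The rhythms of the 2 regimens did not differ detectably on clock time (adjusted p = 0.0977), a test that passed without DRF ZT4 replicate 4 (0.0314) or without DRF ZT12 replicate 2 (0.0402). On food time they did differ (adjusted p = 0.0263, against 41.3% of genes called), and this was lost without NRF ZT8 replicate 4 (0.0656) or DRF ZT20 replicate 3 (0.0516). With both libraries that went against their labels left out, it was 0.0345. Of the 7 single times, Csad passed the test at ZT24 alone, where DRF libraries held 7.18, 8.12, 8.62 and 9.44 TPM and NRF libraries 5.99, 6.25, 6.25 and 6.65 TPM. The groups did not overlap, a pattern that 6.99% of all genes showed in this direction at ZT24. The difference was 0.35 log2 units (SE 0.11, adjusted p = 0.0389, with 4.38% of genes called higher), and it was lost without any of 7 of the 8 libraries of that time (adjusted p up to 0.155). At ZT0, the same hour 1 day earlier, Csad differed by 0.12 (adjusted p = 0.547) and the ranges overlapped.

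Ado, which feeds hypotaurine from cysteamine, was the steadiest of the set. It averaged 13.99 ± 1.25 TPM in DRF hearts and 14.8 ± 1.36 TPM in NRF hearts (SD, n = 28), with a lowest, median and highest library of 11.4, 13.8 and 17.4 TPM under DRF and 12.6, 14.9 and 17.6 TPM under NRF. The mean difference of -0.07 log2 units (SE 0.03, interval -0.14 to -0.01) missed the threshold (limma adjusted p = 0.0753). It passed without any of DRF ZT4 replicate 3 (0.0465), DRF ZT12 replicate 4 (0.0253), DRF ZT20 replicate 4 (0.0410), NRF ZT4 replicate 3 (0.0482) or NRF ZT20 replicate 4 (0.0391), and without ZT4 or ZT12. It was nearer to 0 with median-of-ratios scaling (-0.016, adjusted p = 0.736), with the endothelial level (-0.0017, adjusted p = 0.990) or the mitochondrial share (-0.030, adjusted p = 0.663) as a covariate, and without ZT8 (-0.024, adjusted p = 0.703). No rhythm passed under NRF (adjusted p = 0.551) or DRF (adjusted p = 0.0787), although the latter passed without DRF ZT12 replicate 4 (0.0356) or DRF ZT20 replicate 4 (0.0240).

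At ZT16 the Ado libraries held 11.4, 12.9, 13.01 and 13.5 TPM under DRF and 13.7, 15.3, 15.6 and 16.3 TPM under NRF. The groups did not overlap, as was so for 17.8% of all genes in this direction at ZT16. The difference of -0.25 log2 units (SE 0.07) passed limma's test (adjusted p = 0.0355, with 6.22% of genes called lower), and it was lost without any of 6 of the 8 libraries of that time (adjusted p up to 0.213) and with median-of-ratios scaling (-0.14, adjusted p = 0.174). At ZT0 the groups did not overlap either, with 12.5 to 14.4 TPM under DRF and 14.9 to 17.2 TPM under NRF, but the difference did not pass (-0.18, adjusted p = 0.121). Such a gap was seen in 10.3% of genes in this direction. Ado correlated with the summed endothelial level at r = 0.62 (n = 56), and with that level as a covariate the ZT16 difference was -0.17 (adjusted p = 0.123). Ado also correlated with the cardiomyocyte sum (r = 0.46, and 0.54 for deviations from group means), whose mean was 28439 TPM under DRF and 30183 TPM under NRF, and the part of that sum in the Ado values was not tested.

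Slc6a6, the taurine transporter, was the one tested member whose lower mean level under DRF passed the test. It averaged 47.8 ± 6.20 TPM in DRF hearts and 56.3 ± 7.86 TPM in NRF hearts (SD, n = 28), with a lowest, median and highest library of 36.0, 47.7 and 59.2 TPM under DRF and 41.5, 56.4 and 75.7 TPM under NRF. The ranges overlapped over most of their length. The difference in mean level was -0.24 log2 units (SE 0.05, interval -0.33 to -0.15), or 0.845 of the NRF level, and it passed limma's test (adjusted p = 0.0002). The difference was negative at 6 of 7 ZTs, although at ZT4 it was only -0.00085, and ZT0 and ZT24 are the same clock hour. Of all genes, 24.3% were called lower and 1.67% higher under DRF. With median-of-ratios scaling, which moves the median of all genes from -0.05 to 0.00 and the share of calls that were lower from 93.6% to 57.6%, Slc6a6 was still lower (-0.18, SE 0.04, adjusted p = 0.00213). Without the pair of libraries that went against their labels it was -0.25 (adjusted p = 0.000141). With the endothelial level as a covariate it was -0.13 and did not pass (adjusted p = 0.185).

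Of the 7 ZTs, the Slc6a6 difference passed the test at ZT12 and ZT16. At ZT4 the libraries held 48.1, 54.9, 55.5 and 58.4 TPM under DRF and 50.4, 51.5, 55.6 and 59.5 TPM under NRF, and at ZT8 51.1, 52.1, 55.1 and 59.2 TPM under DRF and 49.4, 50.3, 51.6 and 60.3 TPM under NRF. The regimens could not be told apart at these hours (differences of 0.00 and 0.04 log2 units, SE 0.11, limma adjusted p = 0.998 and 0.908). The DRF value of 54.9 TPM at ZT4 and the NRF value of 49.4 TPM at ZT8 are the libraries that went against their labels, and without them the differences were -0.0077 and 0.011 (adjusted p = 0.982 and 0.969). At these times 0.115% (ZT4) and 0.259% (ZT8) of all genes were called lower, and without the pair 1.79% and 3.02%. At ZT12 they separated, with 42.0, 43.3, 45.6 and 53.7 TPM under DRF and 58.2, 65.9, 67.1 and 73.2 TPM under NRF. The difference was -0.51 (SE 0.11, limma adjusted p = 0.00429, with 6.35% of genes called lower), and 10.9% of genes had groups that did not overlap in this direction. At ZT16 the DRF libraries held 39.8, 46.7, 47.6 and 47.8 TPM and the NRF libraries 55.2, 55.7, 58.7 and 75.7 TPM. They did not overlap, as was so for 17.8% of genes in this direction. The ZT16 difference was -0.42 (SE 0.11, adjusted p = 0.0224, with 6.22% of genes called lower). It was lost without DRF ZT16 replicate 4 (-0.35, adjusted p = 0.141), the lowest library of its group, or without NRF ZT16 replicate 3 (-0.31, adjusted p = 0.135), the highest. It was also lost with median-of-ratios scaling (-0.31, adjusted p = 0.0737) and with the endothelial level as a covariate (-0.29, adjusted p = 0.0766). At ZT20 the groups overlapped again, with 40.2, 43.6, 44.2 and 51.9 TPM under DRF and 49.5, 51.1, 52.9 and 60.8 TPM under NRF. The difference there did not pass (-0.25, adjusted p = 0.131), at a time when 11.5% of genes were called lower. At ZT0 the values were 36.0, 45.1, 46.0 and 49.4 TPM under DRF and 41.5, 57.1, 58.2 and 60.7 TPM under NRF, and at ZT24 38.1, 39.9, 49.3 and 53.5 TPM under DRF and 44.1, 46.7, 57.5 and 59.0 TPM under NRF. These groups overlapped and gave differences of -0.29 (adjusted p = 0.0931) and -0.20 (adjusted p = 0.292), against 8.36% and 4.44% of genes called lower.

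A 24 h rhythm of Slc6a6 passed the test in both regimens, with different peak times. Under NRF the fitted peak was ZT13.6 (SE 1.35), shortly after feeding began, with an amplitude of 0.13 (SE 0.04, log2 units, limma adjusted p = 0.0452). Under DRF it was ZT7.02 (SE 0.98), in the middle of the feeding period, with an amplitude of 0.16 (SE 0.04, adjusted p = 0.0240). The shift on clock time was -6.53 h, an earlier peak under DRF (SE 1.67, interval -9.80 to -3.26 h), and on food time the DRF peak came 5.47 h later. Without the pair of libraries that went against their labels the shift on clock time was -5.88 h. A gene tied to light would shift by under 4 h on clock time, and a gene tied to food would shift by 8 to 12 h. The fitted shift of Slc6a6 lay between these limits, and its interval reached into both ranges. The rhythms differed on clock time (adjusted p = 0.0279, with 27.5% of genes called) and on food time (adjusted p = 0.0294), and 14.4% of all genes passed both tests. At matched hours after the start of feeding, the group means under DRF and NRF were 44.1 and 66.1 TPM at 0 h, 54.2 and 61.3 TPM at 4 h, 54.4 and 53.6 TPM at 8 h, 46.2 and 54.4 TPM at 12 h, 45.5 and 54.2 TPM at 16 h and 45.0 and 52.9 TPM at 20 h. Thus the DRF mean was lower at 5 of these 6 hours. The comparison of fitted curves on the 2 time axes shows this.

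**Figure D3:**
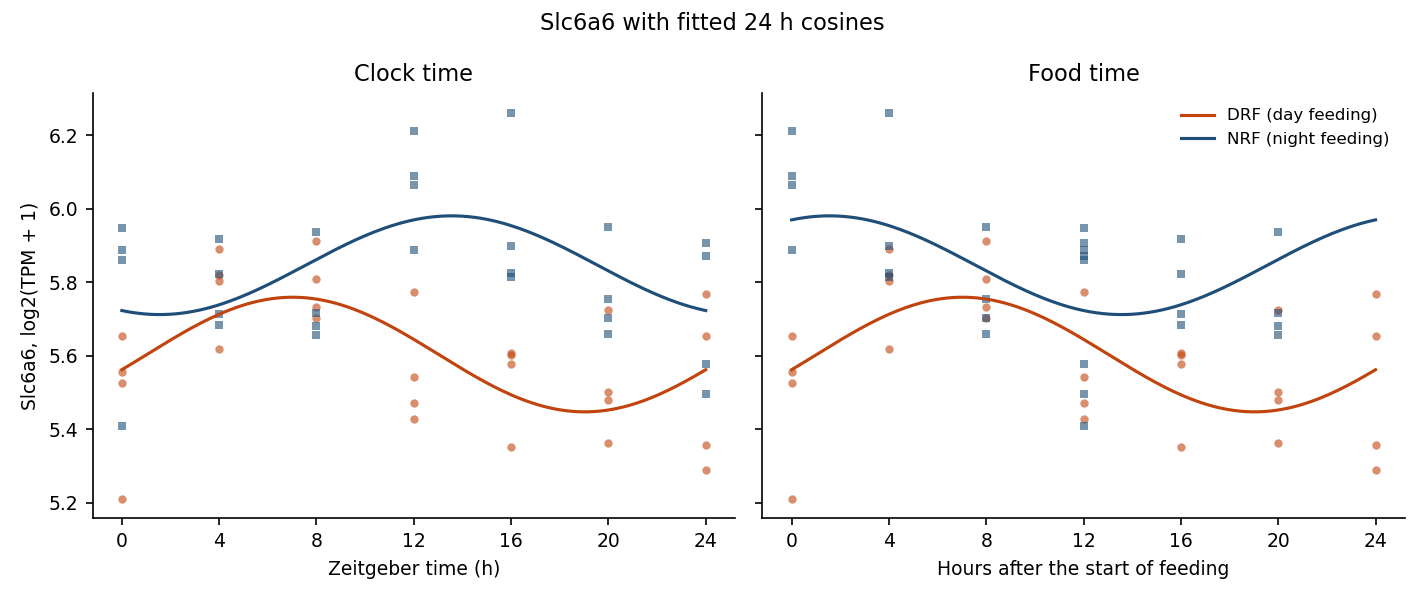
Slc6a6 on the log2(TPM + 1) scale against Zeitgeber time (h, left) and hours after the start of feeding (right), with points for libraries and lines for the fitted 24 h cosine of each regimen, DRF in orange and NRF in blue. The fitted peaks lie at ZT7.02 and ZT13.6 on the left and 5.47 h apart on the right, so the curves align on neither axis.

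These rhythm calls were close to the threshold. The NRF rhythm was lost on leaving out any of 12 single NRF libraries, with adjusted p = 0.0802 without NRF ZT0 replicate 4, 0.0632 and 0.0569 without ZT4 replicates 2 and 3, 0.0545 without ZT8 replicate 4, 0.0874, 0.0819 and 0.108 without ZT12 replicates 1, 2 and 3, 0.0930 and 0.0531 without ZT16 replicates 3 and 4, 0.0512 without ZT20 replicate 3, and 0.0752 and 0.0780 without ZT24 replicates 3 and 4. The DRF rhythm was lost without DRF ZT8 replicate 3 (0.0520). Median-of-ratios scaling ended the DRF rhythm (0.0946) and the difference on clock time (0.0562). Without the pair that went against their labels both rhythms passed (0.0312 under NRF and 0.0397 under DRF). The difference on clock time was lost without DRF ZT4 replicate 3 (0.0504), DRF ZT16 replicate 4 (0.0523) or NRF ZT16 replicate 3 (0.0667), and it was 0.0503 without the pair that went against their labels. The difference on food time was lost without NRF ZT12 replicate 3 (0.0572), and it was 0.0189 without that pair. Without an assumed shape, neither rhythm of Slc6a6 passed (adjusted p = 0.145 under NRF and 0.0705 under DRF).

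Slc6a6 moved with endothelial and vascular transcripts. The genes most like it over the 56 libraries were Podxl (r = 0.85), which encodes podocalyxin, a sialomucin of the endothelial surface, Dab2ip (r = 0.83), a Ras GTPase-activating protein, and Notch3 (r = 0.76), a Notch receptor of vascular smooth muscle. Podxl was at 116 ± 14.4 TPM in DRF hearts and 133 ± 16.7 TPM in NRF hearts (SD, n = 28). The endothelial markers Pecam1, Cdh5, Kdr and Tie1 were all detected in every library and all 4 were lower under DRF, against 24.3% of all genes, by 0.13 to 0.24 log2 units (limma adjusted p from 0.00138 to 0.0305). With median-of-ratios scaling the calls of Pecam1 and Kdr were lost (adjusted p = 0.185 and 0.135). Their summed level was 352 to 612 TPM under DRF (median 447) and 417 to 721 TPM under NRF (median 509), and Slc6a6 correlated with it at r = 0.52 over 56 libraries and 0.63 for deviations from group means. With the endothelial level as a covariate, added after the data were seen, the mean difference of Slc6a6 was -0.13 log2 units (SE 0.04) and did not pass (adjusted p = 0.185). The rhythm calls held with that covariate, with adjusted p = 0.00345 for the difference on clock time. With the adipocyte level as a covariate the Slc6a6 difference was -0.24, and with the mitochondrial share it was -0.20 (adjusted p = 0.00857).

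**Figure D4:**
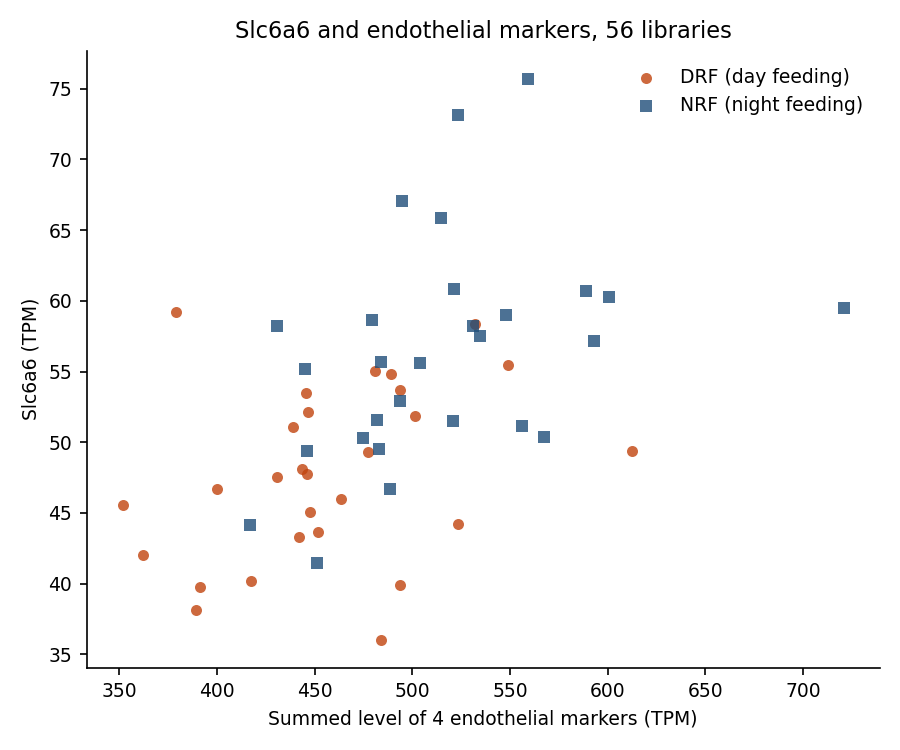
Slc6a6 (TPM) against the summed level of 4 endothelial markers (TPM) in 56 libraries, DRF in orange circles and NRF in blue squares; neither axis starts at 0. Slc6a6 and the endothelial level rise together (r = 0.52), and the DRF libraries lie toward the lower left, with medians of 47.7 and 447 TPM against 56.4 and 509 TPM under NRF.

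The genes most like Csad and Ado were of other kinds, and their likeness was weaker for Csad. Csad was closest to Rab34 (r = 0.72), a small GTPase, Man2c1 (r = 0.69), a cytosolic mannosidase, and 4931406C07Rik (r = 0.69). Ado was closest to Nolc1 (r = 0.84), a nucleolar phosphoprotein, Prcc (r = 0.78) and Golph3 (r = 0.77), a Golgi protein. Among the members themselves, correlations over 56 libraries ran from -0.28 (Cdo1 with Slc6a6, and Cdo1 with Ado) to 0.39 (Cdo1 with Csad).

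The wider pathway was read from 50 genes around the 4 members, of which 48 were listed and 40 tested. Of these 40, 1 was higher and 9 were lower under DRF, against 1.67% and 24.3% of all genes, and their median difference was -0.04 log2 units, close to the -0.05 of all genes. With median-of-ratios scaling 4 were higher and 3 lower, against 765 and 1041 of all 13892 genes. Most of the calls among the 40 thus depended on the scaling. Rhythm differed between regimens in 11 of 40 on clock time and in 18 of 40 on food time, against 27.5% and 41.3% of all genes. The plot of mean levels sets the members among these genes.

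**Figure D5:**
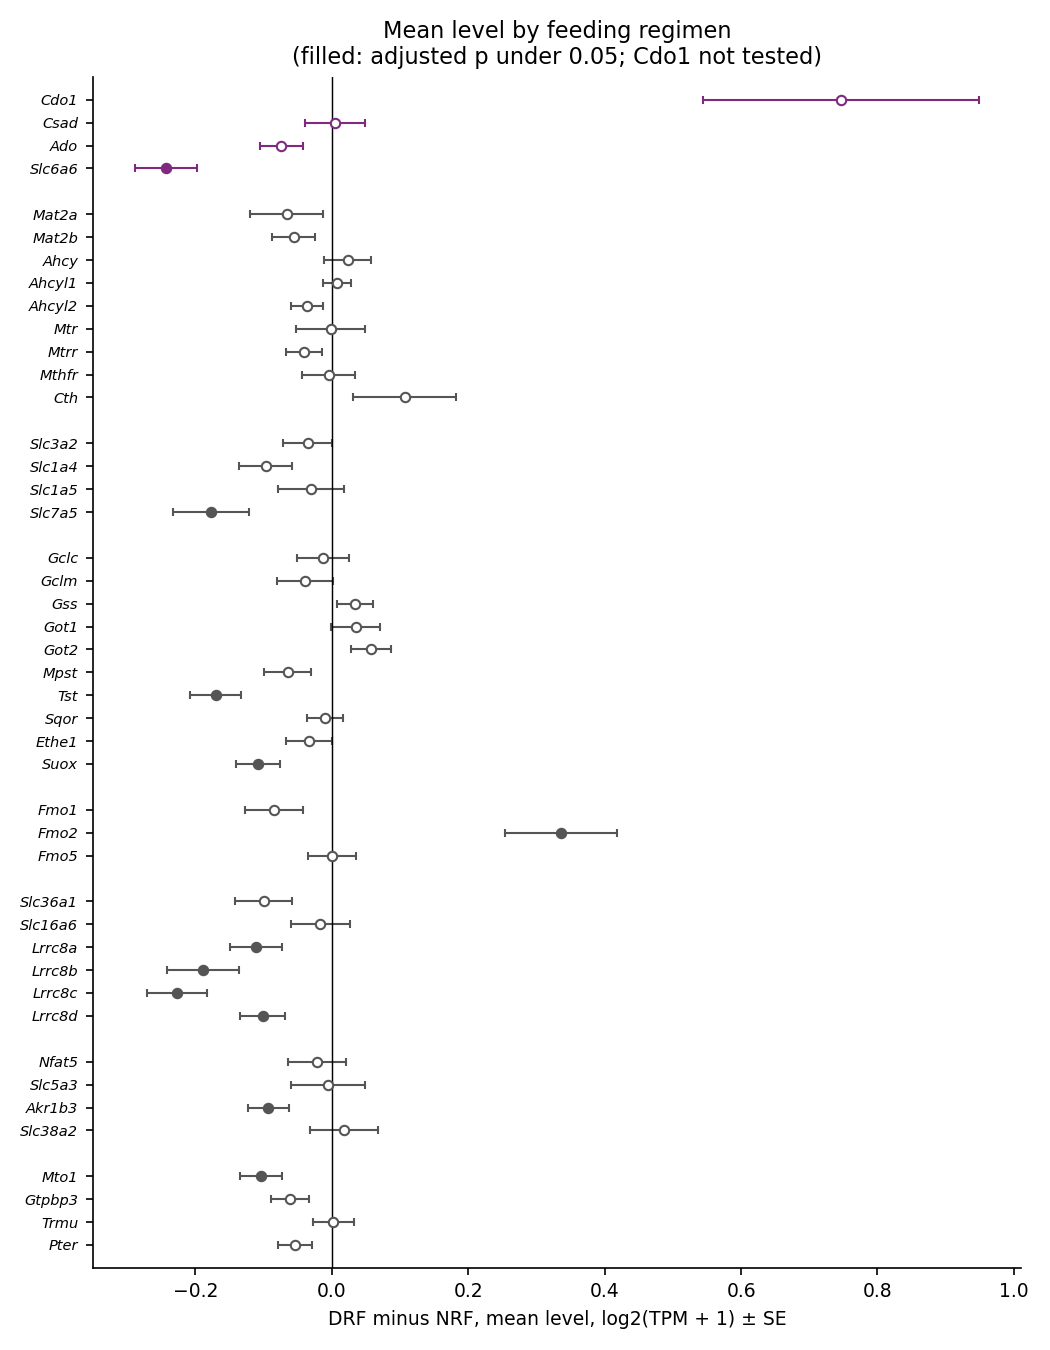
Difference in mean level, DRF minus NRF, on the log2(TPM + 1) scale (points, with SE bars) for the 4 members (purple) and 40 tested genes of 7 related lists (grey, in blocks in the order of the text); filled points passed the test over all genes at an adjusted p of 0.05, and Cdo1 was not tested. Cdo1 at 0.75 and Fmo2 at 0.34 lie farthest to the right, and Slc6a6 at -0.24 farthest to the left.

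Upstream of Cdo1, no gene of the methionine cycle and transsulfuration passed the test of mean level (0 of 9, against 25.9% of all genes; with median-of-ratios scaling Ahcyl1 was higher, by 0.07, adjusted p = 0.00567), and rhythms differed on clock time in 4 of 9 (against 27.5%). Mat2b, the regulatory subunit of methionine adenosyltransferase, peaked at ZT10.8 under NRF and ZT1.82 under DRF (limma adjusted p = 0.000179 for the difference), and Mtr, methionine synthase, at ZT18.2 and ZT9.50 (0.00101). Ahcyl1, a relative of adenosylhomocysteinase, peaked at ZT12.6 and ZT7.32 (0.00348). Of the transporters that bring in cysteine and neutral amino acids, 1 of 4 was lower (against 24.3% of all genes), Slc7a5 (-0.18, adjusted p = 0.0164), named here after its value was seen, and Slc1a4, a neutral amino acid transporter, differed in rhythm (0.00458, mean difference -0.10, adjusted p = 0.0592). The rhythms of Mtr, Ahcyl1 and Slc1a4 passed under 1 regimen only, NRF for Mtr and DRF for Ahcyl1 and Slc1a4, so the other peak time of each comes from a rhythm that did not pass.

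Among genes of the other fates of cysteine, rhythms differed on clock time in 2 of 10, against 27.5% of all genes. These 2 were the subunits of glutamate-cysteine ligase, the first enzyme of glutathione synthesis, and neither passed the test of level. Gclm, the modifier subunit, peaked at ZT12.7 under NRF and ZT0.06 under DRF (adjusted p = 3.8e-11), which is close to the same hour after the start of feeding, and on food time its rhythms did not differ detectably (0.759). Gclc, the catalytic subunit, peaked at ZT10.1 and ZT22.1 (0.00275), with a DRF rhythm that did not pass (0.0636). Their mean differences were -0.04 and -0.01 (adjusted p = 0.502 and 0.840). Tst, the thiosulfate sulfurtransferase rhodanese, was lower under DRF (-0.17, SE 0.04, adjusted p = 0.00109; 9.40 ± 1.03 against 10.6 ± 1.43 TPM, n = 28), and of the 10 genes of this list Suox, sulfite oxidase, was the other one called lower (-0.11, adjusted p = 0.0118), so that 2 of 10 were lower against 24.3% of all genes. With median-of-ratios scaling Tst was still lower (adjusted p = 0.0103) and the call of Suox was lost (adjusted p = 0.210). Gss, glutathione synthetase, and Got2, mitochondrial aspartate aminotransferase, were then called higher (0.09 and 0.12, adjusted p = 0.0142 and 0.00291). Thus 2 of the 10 were higher and 1 lower, against 765 and 1041 of all 13892 genes.

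Downstream, 3 flavin monooxygenases were tested, the family to which the hypotaurine-oxidising enzyme Fmo1 belongs. All 3 were rhythmic in both regimens, against 17.5% of all genes. Fmo1 itself had a mean difference of -0.08 (adjusted p = 0.134), with peaks at ZT16.2 under NRF and ZT15.7 under DRF. Fmo2 was higher under DRF (0.34, SE 0.08, adjusted p = 0.00274; 37.9 ± 17.97 against 31.2 ± 21.0 TPM, n = 28) and rhythmic in both regimens, with peaks at ZT15.5 under NRF and ZT16.0 under DRF. Fmo5 peaked at ZT12.7 and ZT21.7 (adjusted p = 1.18e-06 for the difference in rhythm). The decarboxylase relatives Gadl1 and Gad1 were under the filter, at means of 0.0576 and 0.0375 TPM.

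Of the other routes of taurine transport, 4 of 6 were lower under DRF, against 24.3% of all genes, and all 4 were subunits of the LRRC8 volume-regulated anion channel, through which taurine leaves swollen cells. Lrrc8c fell most (-0.23, SE 0.04, adjusted p = 0.000272; 14.2 ± 1.98 against 16.8 ± 1.92 TPM, n = 28), followed by Lrrc8b (-0.19, SE 0.05, adjusted p = 0.00786). With median-of-ratios scaling, Lrrc8c and Lrrc8b were still lower (adjusted p = 0.000981 and 0.0367), and Lrrc8a and Lrrc8d kept the sign but not the call (0.335 and 0.142). Genes of the tonicity response, which governs Slc6a6 in other tissues, gave 1 lower of 4, near the 24.3% of all genes, Akr1b3, aldose reductase (-0.09, adjusted p = 0.0181). Slc38a2, an amino acid transporter induced by hypertonic stress, differed in rhythm (adjusted p = 0.00342, peaks at ZT22.9 under NRF and ZT17.5 under DRF) while its mean difference was 0.02 (adjusted p = 0.826). Of the genes that use taurine, among them the enzymes that modify mitochondrial tRNA with it, 1 of 4 was lower, likewise near the share of all genes, Mto1 (-0.10, adjusted p = 0.0107), and 0 of 4 differed in rhythm on clock time, against 27.5% of all genes. With median-of-ratios scaling the calls of Slc7a5, Akr1b3 and Mto1 were lost (adjusted p = 0.0710, 0.445 and 0.288). Suox, Gss, Got2, Akr1b3, Mto1, Lrrc8a, Lrrc8d, Fmo1, Gadl1 and Gad1 were likewise named after their values were seen.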

How the data were processed

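The authors deposited 1 table for the series, named as TPM. Per the submitters' processing notes, HISAT2 2.0.5, featureCounts 1.5.0-p3 and mm10 were used. The deposited values were not linear TPM: in each library they followed a constant times log2(1 + scaled reads) divided by exon length. This other unit was undone gene by gene. With exon lengths of GENCODE M21, 99.9996% of 1192342 values came back within 0.1 of a whole read. For 830 genes, 795 of them on chromosomes 17 to 19, a different length was needed; for Cdo1 only 1530 bases gave whole reads (annotated 1644). Another 6 genes were left out. TPM was recomputed from these reads, each library summing to 1000000.

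Tests used limma 3.58.1 in R 4.3.3 on log2(TPM + 1) for 13892 genes with a mean TPM of at least 1, with Benjamini-Hochberg adjustment over all of them and a threshold of 0.05. Mean level was fitted over 56 libraries with ZT and regimen-specific 24 h cosine terms, rhythm as a 24 h cosine within 28 libraries, and single ZTs as group contrasts. The planned design assumed linear TPM. The methods were tested on simulated data. Named genes were the members, the 3 genes of highest r for each (for Cdo1 also 5 by deviations), and 12 list genes. These 12 had the smallest adjusted p for mean level or for the difference in rhythm on clock time. Tests of rhythm within a regimen or on food time were not used for this. List genes named beyond these, and markers, are outside that rule. The members and lists were chosen with earlier results of these data known.

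Replicate numbers were treated as names. Alternatives comprised scaling, pseudocount, filter, the deposited values, replicate block, marker and mitochondrial covariates, voom, and leaving out libraries, replicates or ZTs.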

Additional observations from a re-analysis of the deposited data

Results flagged for a closer look

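Chance gives such a gap in about 1 in 20 groups of 4 libraries, and in 5 of 56 sets 1 library lay far from the other 3. Cdo1 was at 5.64 TPM in NRF ZT20 replicate 3, below the others at 8.82 to 9.44 TPM. Csad was at 10.3 TPM in NRF ZT8 replicate 4, above 7.79 to 8.23 TPM. Ado was at 17.2 TPM in NRF ZT0 replicate 3, above 14.9 to 15.1 TPM. Slc6a6 was at 39.8 TPM in DRF ZT16 replicate 4, below 46.7 to 47.8 TPM, and at 75.7 TPM in NRF ZT16 replicate 3, above 55.2 to 58.7 TPM. The rhythm of Slc6a6 differed between regimens: the vector between the fitted cosines had a length of 0.22 log2 units (limma adjusted p = 0.0279).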

How the results depend on the processing

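Of 78 alternative settings, none reversed a called direction, and the Csad rhythm under NRF passed in all settings tried (limma adjusted p from 0.000315 to 0.0353). The Slc6a6 mean difference lost its call only with the endothelial covariate (-0.13, adjusted p = 0.185), and the Cdo1 difference ranged from 0.35 to 0.98 log2 units. Deviations of samples sharing a replicate number correlated at a mean r of 0.0168, against -0.0056 for other numbers (1 of 28 pairs over 0.1), and 21 of 56 libraries correlated best with their own number, so the numbers were not taken as pairs; the replicate block moved the Slc6a6 NRF rhythm to 0.0503 and ended no other call. The deposited values mix depth and length into the log, so folds on them are on another scale. With no filter, 22858 genes entered the adjustment. A planned count model was not run, and voom on the recovered reads took its place. In other cases the cause was not tested. Depth limits Cdo1 most, with 83 reads in its lowest library.

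Adjusted p-values of the Slc6a6 rhythm under NRF became 0.0624 with no filter, 0.0688 with the deposited values, 0.0820 with the adipocyte covariate, 0.145 with no assumed shape, and 0.0578, 0.407, 0.110, 0.0616 and 0.0946 without ZT4, ZT12, ZT16, ZT20 and ZT24. Under DRF they became 0.0946 with median-of-ratios scaling, 0.271 with the deposited values, 0.0705 with no assumed shape, and 0.112 and 0.180 without ZT4 and ZT8. The Slc6a6 difference on clock time became 0.0562 with median-of-ratios scaling, 0.192 with the deposited values, 0.0503 without the pair of libraries that went against their labels, and 0.146, 0.0752, 0.0654 and 0.0810 without ZT4, ZT8, ZT12 and ZT16. On food time it became 0.105 with the deposited values and 0.0936, 0.0724 and 0.0769 without ZT12, ZT20 and ZT24. The Slc6a6 peak shift was -4.84 h without ZT8. For Csad, the difference on food time became 0.0985, 0.0777, 0.0686 and 0.125 without ZT8, ZT12, ZT16 and ZT20, and that on clock time passed with the deposited values (0.0449), the adipocyte covariate (0.0380) and the atrial covariate (0.0442). Cdo1 passed with the adipocyte covariate for rhythm under NRF (0.0461), under DRF (0.00356) and on food time (0.00019). Ado's DRF rhythm passed without ZT20 (0.0375).

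In log2 units, the Slc6a6 difference at ZT16 lost its call with median-of-ratios scaling (-0.31), the deposited values (-0.068) and the endothelial covariate (-0.29). Ado at ZT16 lost it with median-of-ratios scaling (-0.14), no filter (-0.25), the deposited values (-0.054), the atrial covariate (-0.23) and the endothelial covariate (-0.17). Csad at ZT24 lost it with no filter, without ZT0 and without ZT20 (0.35 in each), and with the adipocyte and atrial covariates (0.30 in each). The Ado mean difference passed without ZT4 (-0.10) or ZT12 (-0.13).

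Leaving out single libraries or all libraries of 1 replicate number gave adjusted p of 0.0279 to 0.323 for the Slc6a6 NRF rhythm, 0.00969 to 0.119 for its DRF rhythm, 0.0155 to 0.214 for its difference on clock time, 0.0161 to 0.391 on food time, and shifts of -8.76 to -5.32 h. For Csad it gave 0.0314 to 0.437 on clock time and 0.00305 to 0.124 on food time, for Cdo1 0.0449 to 0.650 on food time, and for the Ado DRF rhythm 0.0240 to 0.285. Differences in log2 units ranged from -0.64 to -0.42 for Slc6a6 at ZT12 (lost, at adjusted p = 0.152, without replicate 3), from -0.48 to -0.31 at ZT16, from -0.32 to -0.19 for Ado at ZT16, from -0.10 to -0.056 for the Ado mean level and from 0.28 to 0.42 for Csad at ZT24.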
